A study of Mus musculus with 9 samples.

Results

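The genes described here are the nuclear genes for respiratory complexes II, III, IV and V of mouse embryonic stem (ES) cells, with their assembly factors and the electron carrier cytochrome c. They were chosen by gene symbol alone: protein-coding genes whose symbol starts with Sdha, Sdhb, Sdhc or Sdhd, with Uqc, with Cox and a digit, or with Atp5, together with Cyc1, Cycs, Surf1, Sco1, Sco2, Bcs1l, Lyrm7 and Ttc19. The rule gave 71 of the 37310 genes in the files, after 8 of the 79 symbols that met it were left out as annotated pseudogenes. Complex II was represented by 8 genes, complex III by 15, complex IV by 30, complex V by 17 and cytochrome c by 1.

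Complex II, succinate dehydrogenase, takes electrons from succinate and hands them to ubiquinone. Complex III moves them on to cytochrome c, and complex IV, cytochrome c oxidase, gives them to oxygen, while both pump protons across the inner mitochondrial membrane. Complex V, ATP synthase, uses the returning protons to make ATP. All subunits of complex II come from nuclear genes, whereas complexes III, IV and V each also hold subunits encoded in mitochondrial DNA, and each complex needs dedicated assembly factors that insert heme, copper, iron-sulfur or flavin groups and join the parts.

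The series measured total RNA, depleted of ribosomal RNA, of E14-derived mouse ES cells by directional RNA sequencing in 9 libraries, 3 per group, all collected after 72 h. The labelled KO libraries came from cells whose Zbtb11 alleles are flanked by loxP sites (Zbtb11 lox/lox) and whose Rosa26 locus carries ERt2-Cre, kept with 250 nM 4-hydroxytamoxifen (4OHT), which switches this recombinase on. The 4OHT control came from cells with Zbtb11 WT/WT and Rosa26 WT under the same 4OHT dose, and the ethanol control from the Zbtb11 lox/lox, ERt2-Cre cells kept with the carrier ethanol. The ethanol control therefore shares the line of the labelled KO libraries, and the 4OHT control shares their drug but neither the floxed alleles nor the recombinase. Zbtb11 is a BTB-domain gene with zinc fingers. Whether replicates were separate cultures is not in the labels, and p-values then cover only the library-to-library spread, possibly a technical one.

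Zbtb11 itself had 369, 386 and 376 CPM (gene counts scaled to a common library size) in the labelled KO libraries, against 363, 378 and 361 CPM in the 4OHT control and 347, 358 and 359 CPM in the ethanol control. Its summed gene count was thus not lower there, at a log2 fold change of 0.09 ± 0.05 SE against the ethanol control (adjusted p = 0.17 by edgeR's quasi-likelihood test, 0.032 with a replicate block). Which exons lie between the loxP sites is not stated in the sources used here, so this count does not check the deletion. Totals ran from 16909139 to 23544893 gene counts a library, and the genes described here held 0.659% to 0.711% of them in the labelled KO libraries, 0.664% to 0.67% in the 4OHT control and 0.663% to 0.688% in the ethanol control. All 10 ES cell markers on a fixed list were tested, with a summed level of 4189 to 4502 CPM in the labelled KO libraries, 4456 to 5123 CPM in the 4OHT control and 4505 to 4779 CPM in the ethanol control. Of 8 primitive or extraembryonic endoderm markers 6 were tested, and their list summed to 21.4 to 25.3 CPM in the labelled KO libraries, 11.7 to 13.2 CPM in the 4OHT control and 13.4 to 19.4 CPM in the ethanol control, with none at 0 in every library and 3 that rose against the ethanol control and 4 against the 4OHT control. Of the ES cell markers 2 fell against the ethanol control and 4 against the 4OHT control, and none rose. Of all genes 13% rose and 14.2% fell against the ethanol control, and 19.1% and 19.8% against the 4OHT control. All 6 trophoblast markers were tested and summed to 69.4 to 72.9 CPM in the labelled KO libraries, 43.7 to 63.7 CPM in the 4OHT control and 71.4 to 79.3 CPM in the ethanol control. Most of this came from Tfap2c, at 59.1 to 65.6, 36.9 to 57.5 and 65.7 to 74.2 CPM in the same order. The 7 fibroblast markers, 3 of them tested, summed to 18.4 to 18.7, 14.0 to 14.8 and 15.4 to 18.6 CPM. None of either list was called against the ethanol control, and against the 4OHT control 3 trophoblast markers rose, 2 fibroblast markers rose and 1 fell. Their part in the results was not tested, and in bulk RNA a change in the share of a cell type cannot be told apart from a change in RNA per cell.

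Against the ethanol control, 6 of the 66 tested genes rose in the labelled KO libraries, 8 fell and 52 did not pass edgeR's quasi-likelihood test, that is 21.2% called beside 27.2% of all 16224 genes tested. The 8 that fell were Sdha and Sdhb of complex II, Cyc1, Uqcrc1 and Uqcr10 of complex III, Cox7b and Cox10 of complex IV and Atp5a1 of complex V. The 6 that rose were Ttc19 of complex III, Sco1, Cox5b and Cox7a1 of complex IV, and Atp5h and Atp5mpl of complex V. Of all genes, 13% rose and 14.2% fell. The differences were small: log2 fold changes of the 66 genes ran from -0.33 to 0.43, none of the called ones reached 1.5-fold, as 8.82% of all genes did (3.99% reached 2-fold), and the median absolute log2 fold change was 0.12 beside 0.20 for all genes. The median log2 fold change was -0.02, beside 0.01 for all genes, and turned to 0.05 when libraries were scaled by their totals alone, a scaling that moved the median of all genes by 0.07. With that scaling 10 rose and 4 fell, beside 3030 and 1529 of all 16224 genes, and 17 of the 66 changed sign. With RLE size factors 4 rose and 9 fell, beside 2004 and 2468 of all genes. DESeq2 gave 2 that rose and 8 that fell, beside 1605 and 2259 of all genes. The number that rose dropped to 1 without KO replicate 1 or without ethanol control replicate 2, to 2 without ethanol control replicate 3, and to 3 without KO replicate 2 or ethanol control replicate 1. The number that fell dropped to 3 without ethanol control replicate 3, to 4 without KO replicate 1 and to 5 without ethanol control replicate 2. Replicate numbers paired the libraries, and with the number as a block 10 rose and 12 fell, beside 3311 and 3625 of all genes.

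Against the 4OHT control, which shares the same labelled KO libraries, 7 genes rose, 9 fell and 50 did not pass the test, that is 24.2% called beside 39% of all genes, of which 19.1% rose and 19.8% fell. Those that fell were Sdha, Cyc1, Uqcrc1, Uqcrc2, Uqcc2, Cox7b, Cox10, Surf1 and Atp5a1, and those that rose were Uqcr11, Uqcrh, Uqcrq, Cox6b1, Cox18, Sco1 and Atp5h. Sco1, with a log2 fold change of 0.60, was the 1 gene called at 1.5-fold or more, beside 15.7% of all genes, and none reached 2-fold, beside 7.07%. The median log2 fold change was -0.02, beside 0.02 for all genes, and turned to 0.06 with library totals alone. Under that scaling 17 rose and 5 fell, beside 4213 and 2334 of all 16224 genes. With the replicate block 12 rose and 14 fell, beside 4139 and 4198 of all genes. The number that rose dropped to 4 without KO replicate 2, and the number that fell to 5 without KO replicate 1.

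In both comparisons, which share the labelled KO libraries, Sdha, Cyc1, Uqcrc1, Cox10, Cox7b and Atp5a1 fell and Sco1 and Atp5h rose. The share of all genes called alike in both was not counted. The labelled KO libraries did not overlap the ethanol control for 21 of the 66 genes, 31.8% beside 41.9% of all genes tested (27.2% called), and the 4OHT control for 29, 43.9% beside 48.2% (39% called). All 3 labelled KO libraries lay below all 6 control libraries for 7 of the 66 genes, Sdha, Cyc1, Uqcrc1, Uqcrc2, Cox10, Cox7b and Atp5a1, and above all 6 for 5 genes, Ttc19, Sco1, Cox6b1, Cox7a1 and Atp5h. These are 10.6% and 7.58% of the 66, beside 13.1% and 13.5% of all genes tested. Under all 16 alternatives tried, calls against the ethanol control held for Cyc1, Cox7b, Atp5a1 and Sco1. Those against the 4OHT control held for 9 genes: the same 4, Sdha, Surf1, Cox18, Uqcr11 and Atp5h. How many calls of all genes held in this way was not counted. Members are highly expressed, and calls are more frequent among such genes. Among genes at or above the members' median level, 27.3% of 33 members were called against the ethanol control, beside 38.1% of 3563 genes, and 30.3% beside 48% against the 4OHT control.

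**Figure D1:**
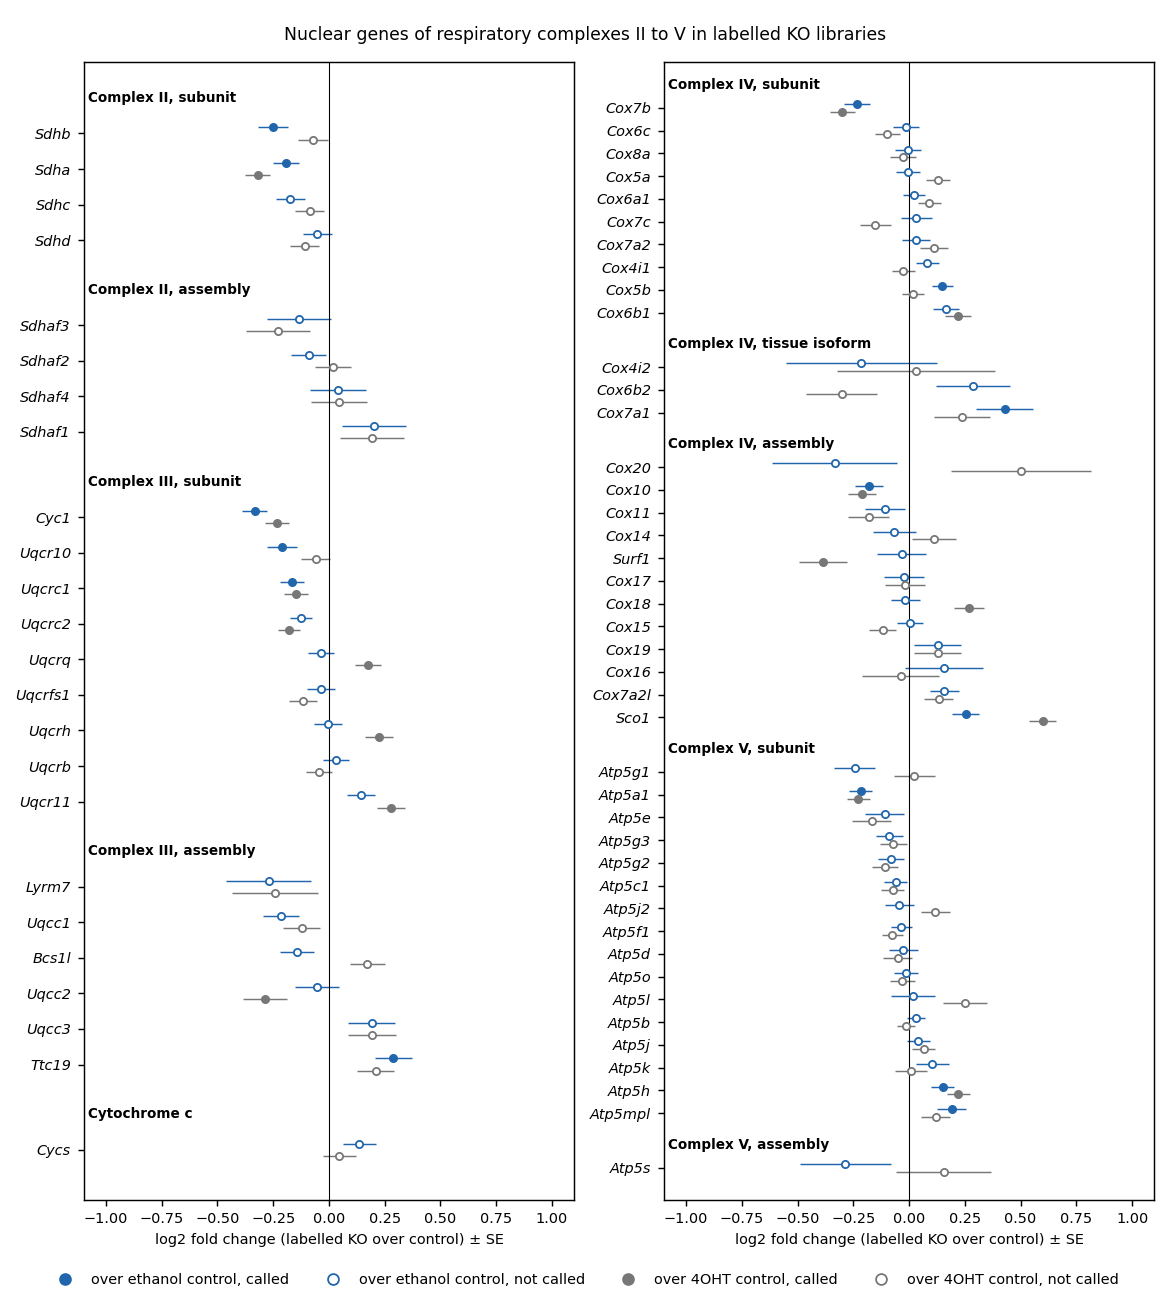
Log2 fold change of each tested gene, labelled KO libraries over the ethanol control (blue) and over the 4OHT control (grey), grouped by complex and role, with bars for SE and filled points for genes called by edgeR (3 libraries per group). Most points lie close to 0, and Cyc1, Cox7b, Sdha and Atp5a1 lie below it and Sco1 above it in both comparisons. Scaling by library totals alone shifts the blue points upward by 0.07 and the grey ones by 0.08.

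Start sites of 57 of the 71 genes could be matched to RefSeq promoters on mouse build GRCm38.p6, a window of 250 bases before to 50 after the start. The letters CCGGAAG, the core bound by GABP (also called NRF2), were present on either strand in 23 of the 57 windows (40.4%), beside 18.4% of 11447 tested genes with a window and 9.93% of all 27025 windows. The letters GCGCA, any base and then GCGC, bound by NRF1, were in 13 windows (22.8%), beside 10.5% and 5.19%, and AAGATGGCG, bound by YY1, in 3 windows (5.26%), beside 3.22% and 1.64%. Both strands were searched for each, and no window held overlapping matches of different motifs. GABP and NRF1 are textbook activators of respiratory chain genes, but a match is a run of letters and no evidence of binding. Among genes called against the ethanol control, GABP letters occurred in 2 of the 6 with a window that fell, in 2 of the 5 that rose and in 19 of the 43 that were not called, and NRF1 letters in 2, 1 and 10 of the same sets. The 200 bases upstream of the start are given below, 5′ to 3′ on the gene's strand, for 2 genes that fell and 2 that rose against both controls, so that the runs of letters can be compared. They were picked because they hold a match there: of 11 genes called against the ethanol control whose windows were examined these 4 do, and Uqcrc1 and Cox7b, which also fell against both controls, do not. Outside these 200 bases, the larger window counted above holds NRF1 letters for Uqcrc1 and GABP letters for Sdhb. Capitals mark GABP or NRF1 letters on either strand.
Sdha, chr13:74350241-74350440, minus strand, fell: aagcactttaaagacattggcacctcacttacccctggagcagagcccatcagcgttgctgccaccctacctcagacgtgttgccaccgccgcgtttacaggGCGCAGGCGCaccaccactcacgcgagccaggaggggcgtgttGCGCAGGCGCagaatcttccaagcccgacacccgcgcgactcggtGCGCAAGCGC
Cox10, chr11:64079473-64079672, minus strand, fell: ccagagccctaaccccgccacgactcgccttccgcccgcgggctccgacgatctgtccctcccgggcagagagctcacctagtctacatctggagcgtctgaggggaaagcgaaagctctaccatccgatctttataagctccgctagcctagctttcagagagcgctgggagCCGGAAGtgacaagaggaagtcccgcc
Sco1, chr11:67052470-67052669, plus strand, rose: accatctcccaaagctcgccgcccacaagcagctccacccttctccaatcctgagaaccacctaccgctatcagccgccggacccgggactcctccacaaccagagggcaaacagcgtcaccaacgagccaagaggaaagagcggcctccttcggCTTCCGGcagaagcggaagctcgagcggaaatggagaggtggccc
Atp5h, chr11:115419920-115420119, minus strand, rose: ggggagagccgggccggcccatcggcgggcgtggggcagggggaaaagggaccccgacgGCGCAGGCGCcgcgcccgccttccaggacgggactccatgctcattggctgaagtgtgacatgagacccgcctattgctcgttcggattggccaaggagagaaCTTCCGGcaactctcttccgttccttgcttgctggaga
The Sdha window held 3 runs of NRF1 letters, first bases at -98, -55 and -10 from the start, and none of GABP. Cox10 held 1 GABP run at -27 and Sco1 1 on the other strand at -45. Atp5h held NRF1 letters at -141 and GABP letters at -38.

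In complex II, 2 of 4 subunits fell against the ethanol control and 1 against the 4OHT control, and none rose. Among all genes 14.2% and 19.8% fell in these comparisons, and 13% and 19.1% rose. All 4 subunits had negative log2 fold changes in the labelled KO libraries against both controls, with medians of -0.18 against the ethanol control and -0.10 against the 4OHT control, although with library totals alone 1 of the 4 turned positive in each comparison and the medians were -0.11 and -0.01. Sdha, the flavin-bearing catalytic subunit, had 167, 184 and 177 CPM in the libraries labelled KO, against 209.8, 217 and 232 CPM in the 4OHT control and 194, 198 and 211 CPM in the ethanol control. Every labelled KO library was below every control library, and Sdha fell by both comparisons of edgeR's quasi-likelihood test (-0.32 ± 0.06 SE, adjusted p = 0.00035 against the 4OHT control; -0.19 ± 0.06, adjusted p = 0.019 against the ethanol control). Its call against the ethanol control ended with library totals alone and without KO replicate 1 or ethanol control replicate 3, with an adjusted p of at most 0.098 over the alternatives. Sdhb, the iron-sulfur subunit, had 68.2, 73.3 and 71.1 CPM in the libraries labelled KO, against 69.4, 79.6 and 74.9 CPM in the 4OHT control and 77.2, 84.8 and 91.3 CPM in the ethanol control. The labelled KO libraries lay below the ethanol control but within reach of the 4OHT control, and Sdhb fell against the ethanol control (-0.25 ± 0.07 SE, adjusted p = 0.0115 by edgeR's quasi-likelihood test) and not against the 4OHT control (-0.07, adjusted p = 0.42, and 0.01 with library totals alone). Without ethanol control replicate 3 its adjusted p was 0.064.

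The membrane anchors of complex II, which hold ubiquinone, did not pass the test. Sdhc averaged 70.2 ± 4.76 CPM in the labelled KO libraries, 74.5 ± 4.80 CPM in the 4OHT control and 79.2 ± 3.59 CPM in the ethanol control (SD, n = 3 each), a log2 fold change of -0.17 against the ethanol control with an edgeR adjusted p of 0.057, and of 0.0018 with the replicate block. Sdhd averaged 80.01 ± 5.36 CPM in the labelled KO libraries, 86.2 ± 4.36 CPM in the 4OHT control and 83.0 ± 5.54 CPM in the ethanol control, with an adjusted p of 0.027 against the 4OHT control under the block (-0.11). None of the 4 assembly factors was called in any comparison. They are Sdhaf2, which helps attach flavin to Sdha, Sdhaf1, which serves the iron-sulfur centres of Sdhb, and Sdhaf3 and Sdhaf4. Their largest shift against either control was -0.23 for Sdhaf3 against the 4OHT control (adjusted p = 0.23 by edgeR's quasi-likelihood test).

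In complex III, cytochrome c1 and the core subunit Uqcrc1 fell against both controls, and the small subunits differed from one another. Against the ethanol control 3 of 9 subunits fell and none rose, beside 14.2% and 13% of all genes. Their median of -0.03 turned to 0.04 with library totals alone. Against the 4OHT control 3 fell and 3 rose, beside 19.8% and 19.1% of all genes. There the median of -0.06 turned to 0.02 with library totals alone. Cyc1, the heme-bearing cytochrome c1, had 133, 142 and 125 CPM in the libraries labelled KO, against 151, 159 and 161 CPM in the 4OHT control and 167, 167 and 169.7 CPM in the ethanol control. No labelled KO library reached any control library, and Cyc1 fell by 0.33 ± 0.05 SE on the log2 scale against the ethanol control (adjusted p = 0.00034 by edgeR's quasi-likelihood test) and by 0.23 ± 0.05 against the 4OHT control (adjusted p = 0.0031). This was the lowest log2 fold change of the 66 genes against the ethanol control, shared to the second decimal with Cox20, a gene near 1 CPM that did not pass the test.

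The core subunits Uqcrc1 and Uqcrc2, which carry no redox group, were also lower. Uqcrc1 had 183, 201 and 198 CPM in the libraries labelled KO, against 214, 213 and 219 CPM in the 4OHT control and 205, 218 and 231 CPM in the ethanol control. It fell by 0.17 and 0.15 on the log2 scale against the ethanol and 4OHT controls (edgeR's quasi-likelihood test, adjusted p = 0.036 and 0.044), and the labelled KO libraries did not overlap either control. Uqcrc2 had 113, 123 and 115 CPM in the libraries labelled KO, against 133, 132 and 132 CPM in the 4OHT control and 125, 132 and 126 CPM in the ethanol control. It fell against the 4OHT control (-0.18, adjusted p = 0.011), and against the ethanol control its log2 fold change was -0.13 (edgeR adjusted p = 0.078, and 0.0096 with the replicate block). Both Uqcrc1 calls and that of Uqcrc2 were lost with library totals alone. The Uqcrc1 call against the ethanol control was also lost with only the groups compared and without KO replicate 1, ethanol control replicate 2 or ethanol control replicate 3 (adjusted p up to 0.16). The call of Uqcrc1 against the 4OHT control was lost with either other low-count filter and without any 1 of 6 libraries, namely the 3 of the 4OHT control, KO replicates 1 and 3 and ethanol control replicate 2 (up to 0.18), and that of Uqcrc2 without KO replicate 1 (0.053). Uqcrfs1, the Rieske iron-sulfur protein, averaged 75.7 ± 6.13 CPM in the labelled KO libraries, 82.1 ± 1.65 CPM in the 4OHT control and 77.6 ± 4.36 CPM in the ethanol control (SD, n = 3 each) and was not called, with an adjusted p of 0.032 against the 4OHT control under the replicate block.

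Among the small supernumerary subunits of complex III, directions differed from gene to gene and between the controls. Uqcr10 had 86.5, 97.6 and 80.9 CPM in the libraries labelled KO, against 88.4, 94.1 and 93.8 CPM in the 4OHT control and 97.4, 103 and 107 CPM in the ethanol control. The ranges overlapped with both controls, and the fall against the ethanol control (-0.21 ± 0.07 SE, adjusted p = 0.026 by edgeR's quasi-likelihood test) was lost with library totals alone and without KO replicate 1 or 3 or ethanol control replicate 2 or 3 (adjusted p up to 0.12 over the alternatives). Uqcr11 averaged 63.2 ± 5.19 CPM in the labelled KO libraries, 52.2 ± 1.67 CPM in the 4OHT control and 57.3 ± 0.177 CPM in the ethanol control (SD, n = 3 each). It rose against the 4OHT control (0.28, edgeR adjusted p = 0.0026), and against the ethanol control had a log2 fold change of 0.14 with an adjusted p of 0.11, or 0.016 under the replicate block. Uqcrh, the acidic hinge protein, and Uqcrq rose against the 4OHT control (0.23 and 0.17, adjusted p = 0.0089 and 0.029) and stood at -0.00 and -0.03 against the ethanol control, so the low group for both was the 4OHT control. The Uqcrh call ended without KO replicate 2 (adjusted p = 0.055), and that of Uqcrq with DESeq2, with only the groups compared and without KO replicate 2 or 4OHT control replicate 1 or 2 (up to 0.17). The ranges of Uqcrb overlapped in all groups.

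Of the 6 assembly factors of complex III, 1 rose against the ethanol control and 1 fell against the 4OHT control. Among all genes 13% and 19.8% did so. Ttc19, which clears fragments of the Rieske protein from the finished complex, had 46.3, 41.7 and 43.5 CPM in the libraries labelled KO, against 39.9, 36.9 and 36.8 CPM in the 4OHT control and 41.2, 33.6 and 32.8 CPM in the ethanol control. All labelled KO libraries exceeded all control libraries, ethanol control replicate 1 being closest, and Ttc19 rose against the ethanol control (0.29 ± 0.08 SE, adjusted p = 0.017 by edgeR's quasi-likelihood test). Its log2 fold change against the 4OHT control was 0.21 with an adjusted p of 0.055, or 0.0022 under the replicate block. Its call against the ethanol control ended without KO replicate 1 or ethanol control replicate 2 or 3 (adjusted p up to 0.095). Uqcc2, a factor for cytochrome b, fell against the 4OHT control (-0.29, edgeR adjusted p = 0.031) with overlapping ranges, and that call ended with library totals alone and without KO replicate 1 or 3 or 4OHT control replicate 2 or 3 (up to 0.13). Bcs1l, which moves the Rieske protein across the membrane, stood at -0.14 against the ethanol control and 0.17 against the 4OHT control and was not called in either. Lyrm7, Uqcc1 and Uqcc3 were not called either, although Uqcc1 had an adjusted p of 0.017 against the ethanol control under the replicate block (-0.21). Cycs, the cytochrome c of somatic cells, averaged 39.6 ± 3.52 CPM in the labelled KO libraries, 38.4 ± 2.39 CPM in the 4OHT control and 36.1 ± 1.05 CPM in the ethanol control (SD, n = 3 each) and did not pass the test.

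In complex IV 8 of the 10 subunits did not pass the test against the ethanol control. There 1 rose and 1 fell, beside 13% and 14.2% of all genes. The median of 0.03 was close to 0, at 0.10 with library totals alone. Cox7b had 69.5, 78.6 and 76.0 CPM in the libraries labelled KO, against 90.4, 91.0 and 94.2 CPM in the 4OHT control and 87.0, 91.5 and 84.8 CPM in the ethanol control. All labelled KO libraries lay below all control libraries, and Cox7b, a small subunit of the membrane domain, fell against both (-0.30 ± 0.06 SE, adjusted p = 0.00069 against the 4OHT control; -0.23 ± 0.06, adjusted p = 0.0068 against the ethanol control, edgeR's quasi-likelihood test). Cox6b1, a subunit on the intermembrane side near the cytochrome c site, had 103, 111 and 97.9 CPM in the libraries labelled KO, against 89.6, 90.7 and 87.7 CPM in the 4OHT control and 86.2, 96.4 and 95.4 CPM in the ethanol control. It was higher than in every control library and rose against the 4OHT control (0.22 ± 0.06 SE, adjusted p = 0.009, but 0.054 without KO replicate 2), and against the ethanol control the log2 fold change was 0.17 with an adjusted p of 0.051, or 0.0023 under the replicate block (edgeR's quasi-likelihood test).

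Cox5b, a zinc-binding subunit on the matrix side, averaged 94.9 ± 1.42 CPM in the labelled KO libraries, 93.8 ± 1.26 CPM in the 4OHT control and 85.6 ± 2.06 CPM in the ethanol control (SD, n = 3 each). It rose against the ethanol control (0.15, edgeR adjusted p = 0.031) and stood at 0.02 against the 4OHT control, and the call ended with DESeq2, without a low-count filter, with only the groups compared and without any 1 of the 6 labelled KO and ethanol control libraries (adjusted p up to 0.14). The other subunits, Cox4i1, Cox5a, Cox6a1, Cox6c, Cox7a2, Cox7c and Cox8a, were not called against either control. Under the replicate block Cox5a (0.13) and Cox7c (-0.15) had adjusted p of 0.012 and 0.0038 against the 4OHT control.

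Of the 12 tested assembly factors of complex IV, 1 rose and 1 fell against the ethanol control, and 2 rose and 2 fell against the 4OHT control. The shares of all genes, in the same order, were 13% and 14.2%, and 19.1% and 19.8%. Sco1, a copper chaperone that delivers copper to the enzyme, had 63.0, 71.1 and 68.4 CPM in the libraries labelled KO, against 43.4, 43.8 and 46.4 CPM in the 4OHT control and 54.6, 57.8 and 57.3 CPM in the ethanol control. The 3 groups did not overlap, the labelled KO libraries being highest and the 4OHT control lowest. Sco1 rose against both controls (0.60 ± 0.06 SE, adjusted p = 1.6e-06 against the 4OHT control; 0.25 ± 0.06, adjusted p = 0.0056 against the ethanol control, edgeR's quasi-likelihood test). Cox10, the enzyme that adds the farnesyl chain on the way to heme A, had 40.7, 44.8 and 42.2 CPM in the libraries labelled KO, against 47.0, 50.1 and 50.7 CPM in the 4OHT control and 46.3, 49.1 and 49.2 CPM in the ethanol control. Every labelled KO library was below every control library, and Cox10 fell against both (-0.21 ± 0.06 SE, adjusted p = 0.013 against the 4OHT control; -0.18 ± 0.06, adjusted p = 0.041 against the ethanol control). Both Cox10 calls were lost with library totals alone and without KO replicate 1. The call against the ethanol control was lost as well with DESeq2, without a low-count filter and without KO replicate 3 or ethanol control replicate 2 or 3 (adjusted p up to 0.19 over the alternatives), and that against the 4OHT control without 4OHT control replicate 3 (up to 0.1). Cox15, the next enzyme towards heme A, stood at 0.01 against the ethanol control and -0.12 against the 4OHT control and was not called, with an adjusted p of 0.04 under the replicate block in the second comparison.

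Surf1, a factor for the Cox1 module, had 11.5, 11.9 and 11.4 CPM in the libraries labelled KO, against 13.5, 15.7 and 16.3 CPM in the 4OHT control and 10.5, 13.4 and 11.8 CPM in the ethanol control. It fell against the 4OHT control (-0.38, edgeR adjusted p = 0.0105) and stood at -0.03 against the ethanol control. Cox18, which helps insert Cox2 into the membrane, had 35.5, 35.2 and 33.6 CPM in the libraries labelled KO, against 29.2, 27.0 and 30.4 CPM in the 4OHT control and 34.2, 35.7 and 35.6 CPM in the ethanol control. It rose against the 4OHT control (0.27, adjusted p = 0.0049) and stood at -0.02 against the ethanol control. For both genes the 4OHT control was the group that stood apart, and both log2 fold changes against the ethanol control turned positive with library totals alone. The copper factors Cox11, Cox17 and Cox19, and Cox14, Cox16 and Cox20, were not called. Cox7a2l, a factor that joins complexes III and IV, was not called either (0.16 against the ethanol control, edgeR adjusted p = 0.085, or 0.019 under the replicate block, and 0.13 against the 4OHT control, 0.044 under the block).

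Most of the 7 complex IV isoforms known from other tissues were low, but Cox6b2 and Cox7a1 lay above the assembly factors' median per kilobase in every group. Cox6a2, Cox7b2, Cox8b and Cox8c were removed by the low-count filter, with at most 0.288, 0.72, 0.416 and 0.623 CPM in any library. The copper chaperone Sco2, the other gene the filter removed, was listed at 0 in all 9 libraries. That 0 is not read as a low level, because its exons overlap other genes. Cox4i2, the lung isoform, stayed between 0.352 and 0.779 CPM. Cox6b2, the testis isoform, had 13.2, 12.1 and 14.5 CPM in the libraries labelled KO, against 20.7, 13.3 and 14.97 CPM in the 4OHT control and 12.5, 8.78 and 11.5 CPM in the ethanol control. Its labelled KO values overlapped both controls and it was not called against either, although the replicate block gave adjusted p of 0.022 against the ethanol control (0.29) and 0.012 against the 4OHT control (-0.30). Cox7a1, the heart and muscle isoform, had 6.40, 6.22 and 6.39 CPM in the libraries labelled KO, against 5.12, 5.40 and 5.61 CPM in the 4OHT control and 5.001, 4.15 and 5.02 CPM in the ethanol control. The labelled KO libraries were above all control libraries, and Cox7a1 rose against the ethanol control (0.43 ± 0.13 SE, adjusted p = 0.0215 by edgeR's quasi-likelihood test), a call that ended with DESeq2 and without KO replicate 1 or 3 or ethanol control replicate 2 (adjusted p up to 0.12). It stood at 0.24 against the 4OHT control with an adjusted p of 0.16.

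In complex V the α subunit Atp5a1 fell while its partner, the catalytic β subunit Atp5b, did not. Atp5a1 had 744, 829 and 806 CPM in the libraries labelled KO, against 912, 929 and 947 CPM in the 4OHT control and 879, 920.4 and 966 CPM in the ethanol control. All labelled KO libraries lay below all control libraries, and Atp5a1 fell against both (-0.23 ± 0.05 SE, adjusted p = 0.0023 against the 4OHT control; -0.22 ± 0.05, adjusted p = 0.0054 against the ethanol control, edgeR's quasi-likelihood test). Atp5b had 1418, 1477 and 1438 CPM in the libraries labelled KO, against 1463, 1439 and 1474 CPM in the 4OHT control and 1411, 1402 and 1425 CPM in the ethanol control. Its ranges overlapped with both, at log2 fold changes of 0.03 ± 0.04 SE against the ethanol control and -0.01 ± 0.04 against the 4OHT control. The difference between the changes of the 2 subunits was not tested.

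Of the other 14 tested subunits of complex V after Atp5a1 and Atp5b, 2 rose against the ethanol control, beside 13% of all genes. Atp5h, the d subunit of the side stalk, had 142, 149.7 and 137 CPM in the libraries labelled KO, against 125, 124 and 119.7 CPM in the 4OHT control and 131, 131 and 124 CPM in the ethanol control. No labelled KO library overlapped a control library, and Atp5h rose against both (0.22, adjusted p = 0.0034 against the 4OHT control; 0.15, adjusted p = 0.04 against the ethanol control, edgeR's quasi-likelihood test). Atp5mpl, a small membrane proteolipid, had 45.1, 47.9 and 40.6 CPM in the libraries labelled KO, against 41.5, 41.7 and 39.9 CPM in the 4OHT control and 38.1, 39.4 and 39.6 CPM in the ethanol control. It exceeded the ethanol control in every library and rose against it (0.19 ± 0.07 SE, adjusted p = 0.044), while it overlapped the 4OHT control (0.12, adjusted p = 0.17). For both genes the call against the ethanol control ended with DESeq2, with RLE size factors, without a low-count filter, with only the groups compared and without any 1 of the 8 libraries other than KO replicate 3 (adjusted p up to 0.18 for Atp5h and 0.21 for Atp5mpl). Atp5g1, 1 of 3 genes for the c ring, had 167, 189 and 138 CPM in the libraries labelled KO, against 161, 174 and 152 CPM in the 4OHT control and 199, 197 and 189 CPM in the ethanol control, with the labelled KO libraries below the ethanol control, KO replicate 2 by the least (-0.24, edgeR adjusted p = 0.064, or 0.0011 under the replicate block). Against the 4OHT control the replicate block gave adjusted p of 0.027 for Atp5j2 (0.12) and 0.015 for Atp5l (0.25). The γ, δ and ε subunits Atp5c1, Atp5d and Atp5e, the other c ring genes Atp5g2 and Atp5g3, the stalk subunits Atp5f1, Atp5j and Atp5o, and Atp5k were not called, and neither was Atp5s (-0.29 against the ethanol control). The median over the 16 subunits was -0.03 against the ethanol control and -0.02 against the 4OHT control, or 0.04 and 0.06 with library totals alone.

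**Figure D2:**
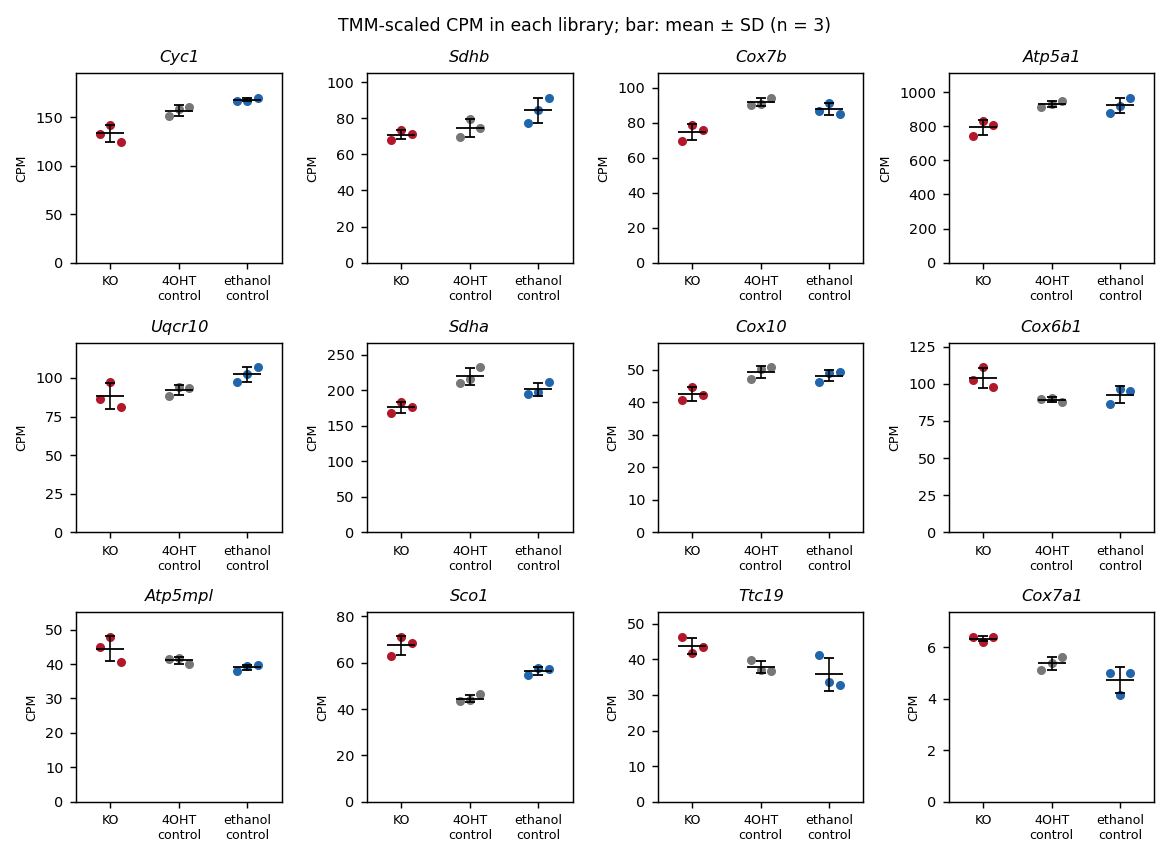
CPM in each of the 9 libraries for the 12 genes with the largest absolute log2 fold change against the ethanol control among those called in either KO comparison, with the labelled KO libraries on the left, then the 4OHT control and the ethanol control, and bars for mean ± SD (n = 3 each). Sdha, Cyc1, Cox10, Cox7b and Atp5a1 sit below both controls in every labelled KO library, and Sco1, Ttc19, Cox6b1 and Cox7a1 above both.

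The intervals of genes that did not pass the test often reach the size of the called changes. Of the 52 not called against the ethanol control, the 95% interval of the fold change lay within 1.2-fold for 28 and within 1.5-fold for 47, the others being Atp5s, Cox20, Cox4i2, Cox6b2 and Lyrm7, and within 2-fold for all 52. Of the 50 not called against the 4OHT control it lay within 1.2-fold for 29, within 1.5-fold for 45, with the same 5 genes outside, and within 2-fold for 49, with Cox20 outside.

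The controls themselves differed for 7 of the 66 genes, 10.6% beside 18.4% of all genes. In the 4OHT control 2 rose over the ethanol control and 5 fell, where 9.66% and 8.75% of all genes did. Cox6b2 was the 1 gene called at 1.5-fold or more, beside 6.16% of all genes, and none reached 2-fold, beside 2.27%. Since these groups differ in line as well as drug, an effect of 4OHT cannot be told apart from one of the line. The 2 that rose were Cox6b2 (0.59, adjusted p = 0.0235) and Surf1 (0.35, adjusted p = 0.033 by edgeR's quasi-likelihood test), and the 5 that fell were Sco1 (-0.34), Bcs1l (-0.31), Cox18 (-0.28), Uqcrh (-0.23) and Uqcrq (-0.21). Calls for Sco1, Bcs1l and Cox18 held under all 16 alternatives. The Cox6b2 call ended with only the groups compared and without 4OHT control replicate 1 or ethanol control replicate 2 or 3 (adjusted p up to 0.1). That of Surf1 ended without 4OHT control replicate 2 or 3 or ethanol control replicate 1 or 3 (up to 0.15), leaving no gene or 1 gene that rose. The calls of Uqcrh and Uqcrq ended without 4OHT control replicate 1 or ethanol control replicate 2, that of Uqcrh also without 4OHT control replicate 3 and that of Uqcrq without ethanol control replicate 3 (up to 0.057 and 0.083). With the replicate block 8 rose and 13 fell, beside 2754 and 2569 of all 16224 genes. Bcs1l had 18.2, 17.6 and 16.7 CPM in the 4OHT control, against 20.9, 22.2 and 22.3 CPM in the ethanol control, with no overlap.

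Levels per kilobase of the principal transcript placed the subunits well above the assembly factors. The 39 tested subunits had a median of 111 CPM per kilobase in the labelled KO libraries, 104 in the 4OHT control and 114 in the ethanol control, and the 23 tested assembly factors 11.4, 11.1 and 11.3 CPM per kilobase in the same groups. Atp5b was highest at 754 CPM per kilobase in the labelled KO libraries, 761 in the 4OHT control and 737 in the ethanol control, and Atp5l was lowest of the complex V subunits at 30.5, 25.7 and 30.2. In complex II Sdhb stood at 62.1 CPM per kilobase in the labelled KO libraries, 65.3 in the 4OHT control and 73.9 in the ethanol control, the highest of the complex in that last group, and Sdhc at 22.1, 23.51 and 24.99. In complex III the range ran from Uqcrfs1 (55.6, 60.3 and 56.9 CPM per kilobase) to Uqcr10 (204, 212 and 236), and in complex IV from Cox7b (74.6, 91.8 and 87.7) to Cox4i1 (304, 309.7 and 288). Isoforms of other tissues were far below the partners used in these cells. Cox4i2 had 0.816 CPM per kilobase in the labelled KO libraries, 0.77 in the 4OHT control and 0.93 in the ethanol control, beside the values of Cox4i1 above. Cox7a1 had 16.1, 13.7 and 12.02 beside 102, 94.6 and 100.02 for Cox7a2, and Cox6b2 24.0, 29.5 and 19.7 beside 168, 145 and 149.99 for Cox6b1.

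**Figure D3:**
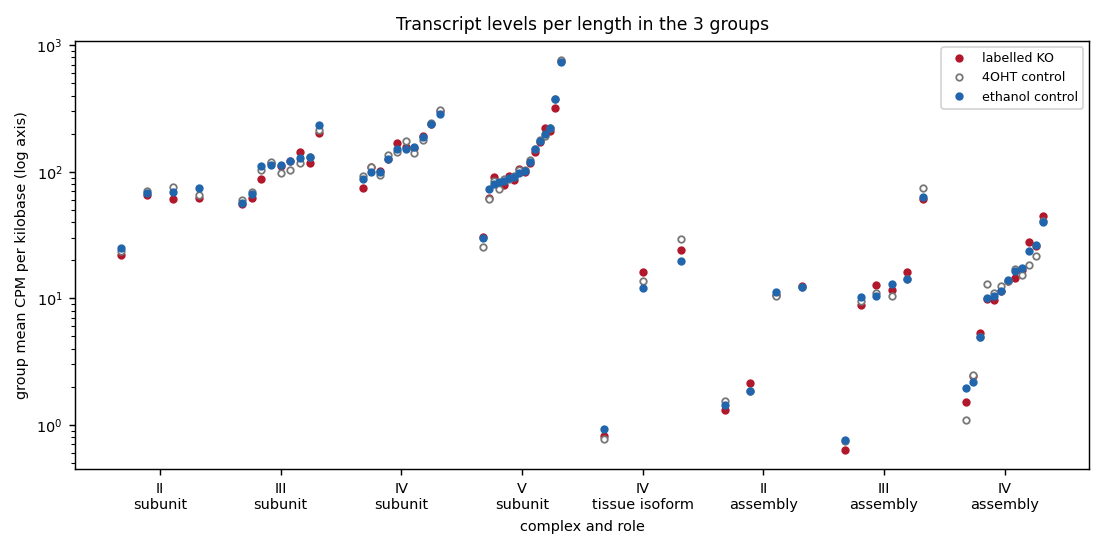
Group mean CPM per kilobase of transcript, on a log axis, for the tested genes by complex and role, with red points for the labelled KO libraries, open points for the 4OHT control and blue points for the ethanol control (n = 3 each; Cycs and Atp5s not drawn). Subunits lie between 22.1 and 761 CPM per kilobase over the 3 groups and assembly factors between 0.633 and 74.8.

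Of the 7 subunits that fell against the ethanol control, 5 were among the longest. The 39 tested subunits have coding sequences of 156 to 1992 bases, with a gap between 507 and 639 bases, and a split at 600 bases was chosen after the values were seen. Of the 11 longer subunits (Sdha, Sdhb, Cyc1, Uqcrc1, Uqcrc2, Uqcrfs1, Atp5a1, Atp5b, Atp5c1, Atp5f1 and Atp5o), 5 fell and none rose against the ethanol control, with a median of -0.13. Of the 28 shorter ones 2 fell and 3 rose, with a median of -0.00. Against the 4OHT control 5 of the 11 fell and none rose, with a median of -0.12, and 1 of the 28 fell and 5 rose, with a median of 0.01. Among all genes tested, 14.2% fell and 13% rose against the ethanol control, and 19.8% fell and 19.1% rose against the 4OHT control. Log2 fold changes were negative for 10 of the 11 against the ethanol control and for all 11 against the 4OHT control, but for 6 and 6 with library totals alone, under which 3 and 3 fell. The number of the 11 that fell against the ethanol control dropped to 3 without KO replicate 1 and to 2 without ethanol control replicate 3, and that against the 4OHT control to 3 without KO replicate 1. Between the controls, the 4OHT control over the ethanol control, none of the 11 was called. The split leaves out assembly factors. Among those of at least 600 coding bases, Sco1 (867 bases) rose against both controls. Ttc19 (1095) rose against the ethanol control and Cox18 (996) against the 4OHT control, while Cox10 (1329) fell against both. Surf1 (918) fell against the 4OHT control. Spearman's rho between coding length and log2 fold change over these 39 subunits was -0.40 against the ethanol control and -0.41 against the 4OHT control, and 0.04 between the controls, as a description of genes that share libraries. Over all 66 tested genes, assembly factors and tissue isoforms included, it was weaker, at -0.33, -0.28 and 0.00. With the length of the principal transcript in place of coding length, rho over the 66 was -0.265 against the ethanol control and -0.242 against the 4OHT control. Over 15581 tested genes with a matched annotation it was -0.04 and -0.06, but with another measure, the joined length of all annotated exons. The values for the 66 and for all genes are therefore not like for like. Whether transcript length, level or role goes with the difference was not tested.

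**Figure D4:**
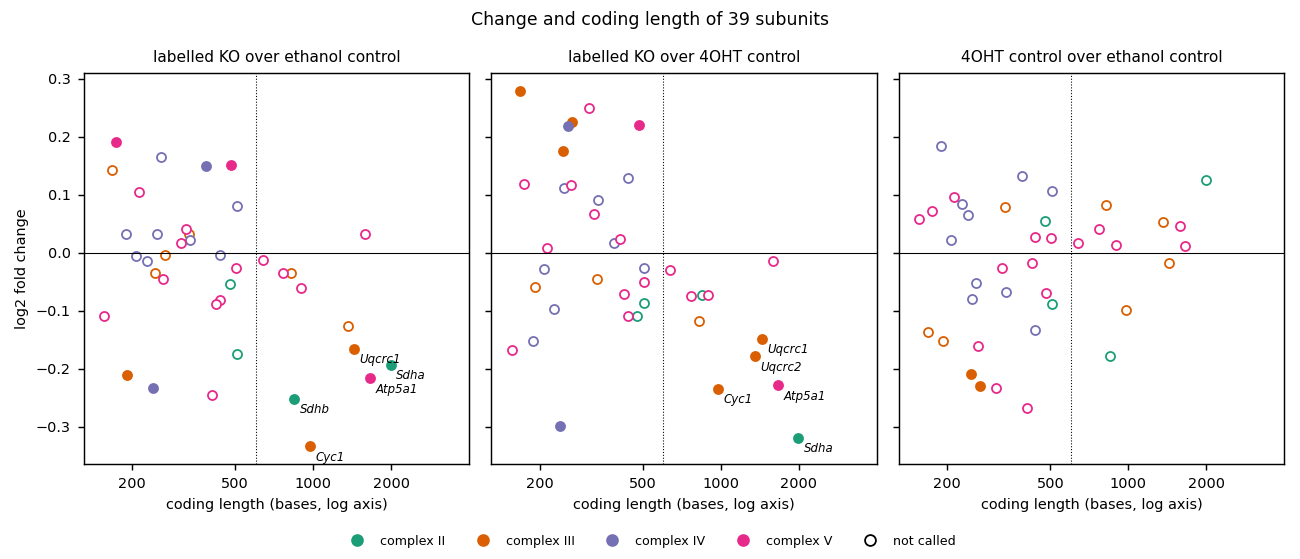
Log2 fold change against coding length in bases (log axis) for the 39 tested subunits, coloured by complex and filled where called, in panels for the labelled KO libraries over the ethanol control, the labelled KO libraries over the 4OHT control, and the 4OHT control over the ethanol control, with a dotted line at 600 bases. To the right of the line 10 of 11 and 11 of 11 points lie below 0 in the first panels, but 6 and 6 when libraries are scaled by their totals alone, and 3 of 11 in the last panel.

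Genes that act with these complexes but fall outside the symbol rule included much larger changes. These partners were listed with earlier results of these data known, so the contrast with genes taken by symbol is only a description. Calls at 2-fold or more made up 3.99% of all genes against the ethanol control and 7.07% against the 4OHT control. Of 7 partners of complex V and cytochrome c, 5 fell and 1 rose against the ethanol control, with a median of -0.31. Against the 4OHT control 3 fell and none rose, with a median of -0.13. The shares of all genes that fell were 14.2% and 19.8% in these comparisons, and those that rose 13% and 19.1%. Atpaf1, the chaperone that holds the β subunit before assembly, had 7.17, 6.85 and 7.95 CPM in the libraries labelled KO, against 25.7, 29.9 and 27.3 CPM in the 4OHT control and 21.3, 19.4 and 18.2 CPM in the ethanol control. The labelled KO libraries stood far below both controls (-1.92, adjusted p = 3.8e-10 against the 4OHT control; -1.43, adjusted p = 2.8e-08 against the ethanol control, edgeR's quasi-likelihood test). Tmem70, an assembly factor of ATP synthase, had 11.02, 10.6 and 10.8 CPM in the libraries labelled KO, against 22.0, 23.1 and 26.2 CPM in the 4OHT control and 16.7, 20.2 and 19.2 CPM in the ethanol control, and fell as well (-1.14 and -0.79). Both genes also differed between the controls, rising in the 4OHT control over the ethanol control (0.49 for Atpaf1 and 0.35 for Tmem70, the second call ending without 4OHT control replicate 3 or ethanol control replicate 1, adjusted p up to 0.087). Fmc1, known in yeast for a role in assembly of the same enzyme, had 4.66, 4.32 and 4.62 CPM in the libraries labelled KO, against 6.44, 8.16 and 7.63 CPM in the 4OHT control and 7.41, 6.07 and 7.10 CPM in the ethanol control, and fell against both (-0.70 and -0.59). Atpif1, the inhibitor of ATP hydrolysis by the enzyme, fell against the ethanol control (-0.22, adjusted p = 0.0091), as did Cyct, the testis cytochrome c (-0.31, adjusted p = 0.03). Cyct stood at 0.15 against the 4OHT control (adjusted p = 0.26) and fell in the 4OHT control over the ethanol control (-0.46), so the 4OHT control was its lowest group. The Cyct call ended without KO replicate 1 or 2 or ethanol control replicate 1 or 3 (adjusted p up to 0.09). Atpif1 against the 4OHT control stood at -0.13, with an adjusted p of 0.0123 under the replicate block. Hccs, which attaches heme to cytochromes c and c1, rose against the ethanol control (0.18, adjusted p = 0.044), a call that ended when any 1 of the 9 libraries was left out, and stood at -0.05 against the 4OHT control.

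Of 19 listed partners of complex IV, 17 were matched and tested. Against the ethanol control 2 rose and 4 fell, with a median of -0.02 that turned to 0.05 with library totals alone. Against the 4OHT control none rose and 3 fell, with a median of -0.08, or -0.00 with library totals alone. For comparison, 13% of all genes rose and 14.2% fell against the ethanol control, and 19.1% rose and 19.8% fell against the 4OHT control. Taco1, an activator of the translation of mt-Co1, had 2.04, 1.65 and 1.77 CPM in the libraries labelled KO, against 18.4, 19.8 and 20.1 CPM in the 4OHT control and 16.7, 18.6 and 18.0 CPM in the ethanol control. It fell by 3.41 on the log2 scale against the 4OHT control and by 3.28 against the ethanol control (adjusted p = 6.4e-12 by edgeR's quasi-likelihood test). Against the ethanol control Fastk (-0.42), Oxa1l, which inserts mitochondrially made proteins into the membrane (-0.20), and Lrpprc, which stabilises mitochondrial mRNAs (-0.15), fell, and Tmem177 (0.39) and Coa7 (0.23) rose. Fastk also fell in the 4OHT control over the ethanol control (-0.27) and did not pass against the 4OHT control (-0.15, edgeR adjusted p = 0.082, or 0.024 under the replicate block). Cmc2 (-0.44) and Oxa1l (-0.15) fell against the 4OHT control, and Cmc2 stood at 0.04 against the ethanol control. Among these, the Coa7 call ended without KO replicate 1 or 2 or ethanol control replicate 1 or 2 (adjusted p up to 0.124), that of Tmem177 without KO replicate 3 or ethanol control replicate 1 (0.092), that of Lrpprc without KO replicate 1 or ethanol control replicate 1 or 2 (0.093), and that of Oxa1l against the 4OHT control without KO replicate 1 or 4OHT control replicate 2 or 3 (0.123). With the replicate block 3 rose and 6 fell against the 4OHT control, beside 4139 and 4198 of all 16224 genes. Calls for Taco1, Atpaf1, Tmem70 and Fmc1 against both controls held under all 16 alternatives.

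Of the 6 mitochondrially encoded partners, 4 (mt-Co2, mt-Co3, mt-Atp6 and mt-Atp8) had at most 0.119 CPM in any library and were not tested. Since every cell transcribes them, their counts are not read as levels. The values of mt-Cytb and mt-Co1 come from the same counting, and whether they are affected as well was not tested. mt-Cytb, cytochrome b of complex III, had 2896, 2817 and 2609.6 CPM in the libraries labelled KO, against 2013, 2140.4 and 1916 CPM in the 4OHT control and 2148, 2024 and 1813 CPM in the ethanol control. It rose against both (0.46 and 0.48). mt-Co1 of complex IV had 4729, 4849.7 and 4567 CPM in the libraries labelled KO, against 5691, 6545 and 6063 CPM in the 4OHT control and 5855, 5999.8 and 5202 CPM in the ethanol control, and fell against both (-0.37 and -0.27). For both genes the labelled KO libraries did not overlap the controls.

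**Figure D5:**
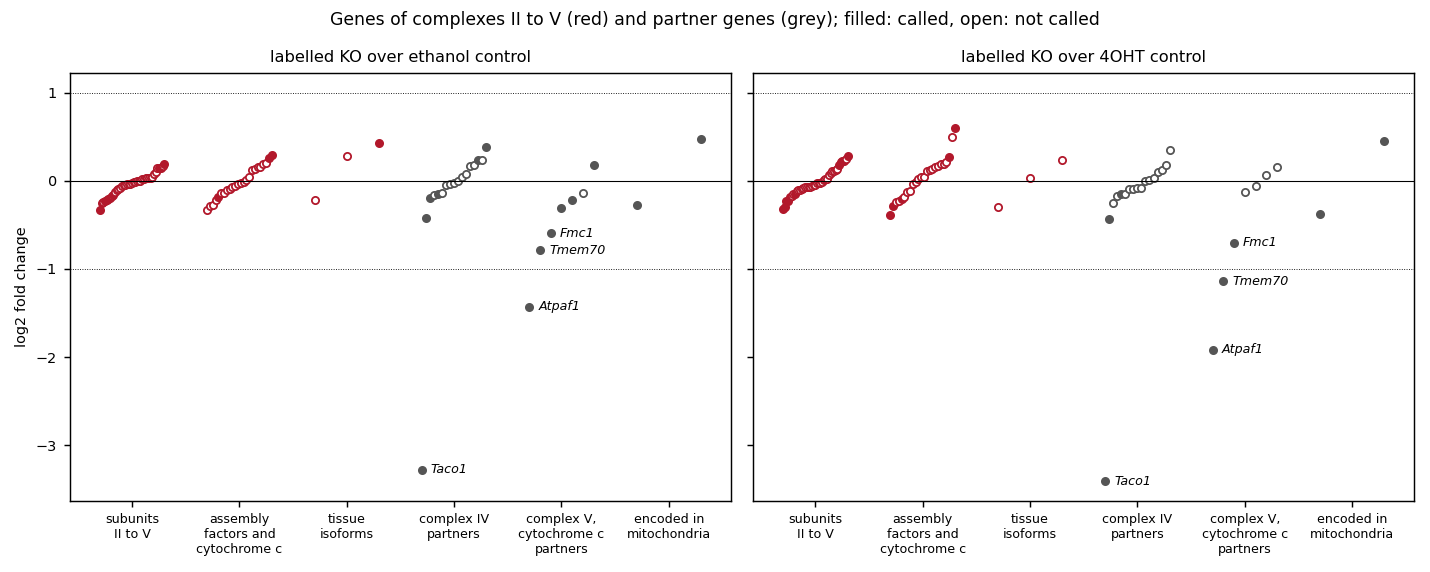
Log2 fold change of labelled KO libraries over the ethanol control and over the 4OHT control for the tested genes of the 4 complexes (red) and their partners outside the symbol rule (grey), filled where called, with dotted lines at 2-fold. Partners were listed with earlier results of these data known. The genes of the complexes stay between -0.38 and 0.60, whereas the partners Taco1 and Atpaf1 lie below -1 in both comparisons and Tmem70 against the 4OHT control; library totals alone move all points up by 0.07 and 0.08.

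Some counts are uncertain because of copies or overlaps. Of the 71 genes, 19 shared near-identical coding sequence with at least 1 other annotated gene. The counts of those other genes came to at most 1.331% of the gene's own, apart from Atp5l (5.26%), Sdhaf1 (6.28%), Cox20 (7.58%) and Sco2. Sco2 had no counts of its own, whereas Ncaph2, whose annotated transcripts hold the whole Sco2 coding sequence on the other strand, had 26054 counts over the 9 libraries. Exons of Cox20 (91.1% of bases), Sdhaf1 (69.6%) and Cox11 (48.3%) overlap a gene on the other strand, and those of Sco2 (68.3%) and Cox16 (56.8%) a gene on the same strand. No source used here gives the strand setting of the counting, and reads of such pairs may be mixed.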

How the data were processed

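RNA was measured in 9 libraries, 3 each of the labelled KO, 4OHT control and ethanol control cells, grouped by title and genotype labels. Per the labels' protocols, ribosomal RNA was depleted from total RNA and directional libraries were made. The authors deposited raw counts of reads per Ensembl gene, 1 file per library. Per the submitters' processing notes, cutadapt, STAR, HTSeq, edgeR, Bowtie 1.1.2, MACS2, DiffBind and the build mm9 were used, without a role for each. The 5 entries at the end of each file that are not genes were left out of totals and tests; no-feature reads made up 26.4% to 33.8% and ambiguous reads 0.78% to 0.908%. GENCODE M21 gave a symbol for 32620 of 37310 gene rows and served for names and lengths. Promoters came from RefSeq on GRCm38.p6, so no coordinates of the files' build are printed.

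All 3 comparisons came from 1 fit of edgeR's quasi-likelihood test (edgeR 4.0.16, limma 3.58.1, R 4.3.3) over the 9 libraries, with TMM scaling, the filterByExpr filter, 6 residual degrees of freedom and Benjamini-Hochberg adjustment over 16224 genes. Genes with an adjusted p under 0.05 were called, and "rose" and "fell" refer to calls. CPM are the deposited counts scaled to a common library size, adjusted by TMM, and log2 fold changes come from the fit. The fit gives no SE. Each SE shown is the absolute log2 fold change over the square root of the test's F statistic. The intervals use this SE with the degrees of freedom of the test. The fit was tested on simulated data. DESeq2 1.42.0, other scalings and filters, a fit of only the groups compared, a replicate block and each library left out made 16 alternatives. Deviations of same-numbered libraries from their group means correlated at 0.109 to 0.311 in all 9 pairs, over the 0.1 required, so the numbers pair the libraries. The labels do not say what they share. The main fit leaves this pairing out, and "not called" refers to that fit. With the block, 22 genes in place of 14 were called against the ethanol control. Against the 4OHT control it called 26 in place of 16, and between the controls 21 in place of 7.

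The genes and lists were chosen with earlier results of these data known. Every gene called in either KO comparison is named, the 12 with the largest change against the ethanol control with all libraries; beside them the 6 largest called between controls, the highest and lowest subunit of each complex, tissue isoforms and filtered genes. Other genes shown with values were chosen after those were seen, among them Sdhc, Uqcrfs1, Cycs, Atp5b, Atp5g1 and those named for the replicate block.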

Additional observations from a re-analysis of the deposited data

Results flagged for a closer look

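Reads that the authors' counting assigned to no gene feature, which no comparison above uses, made up a larger share in every labelled KO library than in any control library. The lowest share among the labelled KO libraries was 32.7% and the highest 33.8%, against 26.7% to 27.5% in the 4OHT control and 26.4% to 28.7% in the ethanol control. The part of these reads in the levels of the respiratory genes was not tested.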

How the results depend on the processing

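Of 14 calls against the ethanol control 4 held under all 16 alternatives, of 16 against the 4OHT control 9, and of 7 between the controls 3. The same was not counted for all genes. Against the ethanol control those of Atp5h and Atp5mpl held under 4, Cox5b under 7 and the partner Hccs under 3, and against the 4OHT control Uqcrc1 under 7. Alternative values were tallied for genes of the complexes called in any comparison, and for partners where they were called. Of these values, 491 kept direction and side of the threshold against the ethanol control, 467 against the 4OHT control and 447 between the controls. In the same order, 95, 31 and 20 lost the call, 10, 12 and 9 gained it, and 12, 2 and 4 changed sign. The number that rose against the ethanol control (6) was 10 with library totals alone or the replicate block, 3 without a low-count filter or with only the groups compared, 2 with DESeq2, and 1 to 6 with 1 library left out. The number that fell (8) was 4 with library totals alone and 3 to 11 with 1 library left out. Against the 4OHT control, 7 that rose became 17 with library totals alone, 12 with the replicate block and 4 to 9 with 1 library left out, and 9 that fell became 5, 14 and 5 to 12. Between the controls, 2 that rose became 4 without a filter, 1 with only the groups compared, 8 with the block and 0 to 2 with 1 library left out, and 5 that fell became 13 with the block and 3 to 6. The replicate block raised the genes called over the whole table to 6936 from 4417 against the ethanol control and to 5323 from 2987 between the controls, the second being 1974 without ethanol control replicate 2. The range with 1 library left out was 3067 to 4559 against the ethanol control and 1974 to 3069 between the controls. The genes' medians, -0.02 and -0.02, were 0.05 and 0.06 with library totals alone.

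Sign changes were near 0. With library totals alone, log2 fold changes against the ethanol control were 0.054 for Cox18, 0.0391 for Surf1, 0.0172 for Uqcc2, 0.0662 for Uqcrh and 0.0357 for Uqcrq, those against the 4OHT control 0.0094 for Sdhb and 0.0235 for Uqcr10, and that of Atp5a1 between the controls -0.000494. Uqcrh was 0.00444 with the filter at 1 CPM in 3 libraries. With 1 library left out the ranges were -0.0421 to 0.00158 for Cox18, -0.124 to 0.0625 for Surf1, -0.138 to 0.025 for Uqcc2 and -0.0759 to 0.0291 for Uqcrh against the ethanol control, and -0.0245 to 0.0466 for Atp5a1 and -0.0632 to 0.0253 for Uqcrc1 between the controls. The cause of these changes was not tested, except that library totals shift every gene alike. Of the 11 longer subunits, those below 0 numbered 6 against each control with library totals alone, and 2 to 6 between the controls with 1 library left out. Those that fell numbered 3 and 3 with library totals alone, 2 to 6 and 3 to 6 with 1 left out, and between the controls 1 with the replicate block and 0 to 1 with 1 left out. Counts over the 9 libraries were 113 for Cox4i2, 132 for Cox20, 453 for Lyrm7, 588 for Atp5s and 2481 for Cox6b2, whose intervals exceed 1.5-fold against both controls; the part of depth was not tested. The replicate block ended no call among the 66 genes; calls it added against either control are given with those genes, and those between the controls as counts.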

Other observations

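Other genes of the list held near their control values at high levels. Atp5o, the subunit that joins the side stalk to the head of ATP synthase, averaged 145 ± 7.45 CPM in the labelled KO libraries, 148 ± 5.23 CPM in the 4OHT control and 146 ± 5.56 CPM in the ethanol control (SD, n = 3 each). Cox8a, a small membrane subunit of complex IV, averaged 131 ± 7.26 CPM in the labelled KO libraries, 133 ± 7.81 CPM in the 4OHT control and 131 ± 1.75 CPM in the ethanol control (SD, n = 3 each). Both were chosen after their values were seen.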
